A study of Mus musculus with 6 samples.

Results

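The enteric nervous system was followed through 8 genes that mark its neurons and glia, *Uchl1*, *Elavl4*, *Ret*, *Vip*, *Nos1*, *S100b*, *Sox10* and *Gfap*, which were taken by name from the 27202 genes of an RNA-seq table of mouse colon. In it 3 libraries came from *Nedd4l* fl/fl VillinCre mice (cKO), in which Cre under the Villin promoter removes the ubiquitin ligase gene *Nedd4l* from intestinal epithelial cells, and 3 from *Nedd4l* fl/fl littermates without Cre (WT). Every mouse was 8 to 10 weeks old and drank 2% dextran sulfate sodium (DSS), a polymer that damages the colonic epithelium and causes colitis, for the 7 days before the tissue was taken, so no mouse without DSS was compared. The values are normalized counts, that is, reads per gene divided by a size factor of the library, and fold changes are given on the log2(normalized count + 1) scale as cKO against WT. The floxed allele is not deleted by this Cre line in neurons or glia, so the comparison asks whether RNA of these cells differed in whole colon when the epithelium lacked *Nedd4l*. In whole tissue, fewer cells of a type and less RNA per cell cannot be told apart.

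Enteric neurons and glia arise from neural crest cells that migrate into the gut and form the myenteric plexus between the muscle layers and the submucosal plexus beneath the mucosa. GDNF, made by the gut mesenchyme, signals through the receptor tyrosine kinase RET and the coreceptor GFRA1, and this signal is needed for the crest cells to colonize the bowel. Mature neurons use acetylcholine and tachykinins to excite muscle and nitric oxide and VIP to relax it, and VIP also drives epithelial secretion. Enteric glia surround the neurons, keep SOX10 and S100B, and increase GFAP when they become reactive.

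None of the 8 genes differed between genotypes beyond the spread between libraries. Of them, 6 had a mean of at least 10 normalized counts over the 6 libraries and were tested, while *Elavl4* (mean 7.30) and *S100b* (mean 7.97) lay below that filter. Among the 6 tested genes, 3 had a fold change below 0 and 3 above 0, and 0 had an unadjusted p under 0.05 (limma), against 7.08% of all 16246 tested genes lower in cKO and 6.91% higher. The adjusted p was under 0.05 for 0 of the 16246 genes (0%), the smallest being 0.111 (limma, Benjamini-Hochberg). In 0 of the 8 genes did the genotypes separate, whereas the 3 cKO libraries lay below all 3 WT libraries for 10.9% of tested genes and above them for 10.5%, 21.4% in all. For *Ret* the 95% interval ran from 0.69 to 4.202 times the WT level and for *Uchl1* from 0.32 to 1.53 times, so sizeable differences in either direction were not detectable with these libraries. An exact two-sided permutation test of 3 libraries against 3 cannot go below 0.10, and for the 8 genes it gave p between 0.4 and 0.9.

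The libraries held between 14914367 and 17547270 steps, a step being the smallest value of a library, of which all its values are whole multiples. *Nedd4l* itself stood at 476, 942 and 566 normalized counts in cKO replicates 1 to 3 and at 1241, 1271 and 1266 in WT, a log2 fold change of −0.99 ± 0.24 (SE, n = 3 per genotype, adjusted p = 0.225). The library of cKO replicate 2 kept the most *Nedd4l* and, over all tested genes, correlated less with its own genotype (mean r = 0.966) than with WT (0.977). Without this library the log2 fold changes of the 8 genes were −0.34 for *Uchl1*, −0.44 for *Elavl4*, 1.37 for *Ret*, 0.52 for *Vip*, 0.28 for *Nos1*, 0.56 for *S100b*, −0.24 for *Sox10* and 0.67 for *Gfap*. All 8 adjusted p were still above 0.05, the lowest being that of *Ret* (0.0946).

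The RefSeq promoter table (GRCm38.p6, 250 bases before and 50 after a transcript start) matched 6 of the 8 genes with 9 windows. The windows of *Vip*, *Elavl4* and *Uchl1* are given here because these are the neuronal genes whose RefSeq start lay within 30 bases of the gene start in the table and which all peaked in the same library. They lie at chr10:5638968-5639267 on the plus strand, chr4:110351862-110352161 on the minus strand and chr5:66675871-66676170 on the plus strand. Each is written 5′ to 3′ on the strand of its gene, with capitals marking matches to TATAAA (the TATA box core) or TGACGT (the core of the cyclic AMP response element) on either strand.
Vip: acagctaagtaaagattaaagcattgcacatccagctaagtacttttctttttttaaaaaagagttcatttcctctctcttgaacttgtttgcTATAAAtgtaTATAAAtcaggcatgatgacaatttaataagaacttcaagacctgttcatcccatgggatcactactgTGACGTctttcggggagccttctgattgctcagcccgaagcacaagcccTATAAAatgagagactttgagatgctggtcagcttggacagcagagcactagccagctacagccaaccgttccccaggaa
Elavl4: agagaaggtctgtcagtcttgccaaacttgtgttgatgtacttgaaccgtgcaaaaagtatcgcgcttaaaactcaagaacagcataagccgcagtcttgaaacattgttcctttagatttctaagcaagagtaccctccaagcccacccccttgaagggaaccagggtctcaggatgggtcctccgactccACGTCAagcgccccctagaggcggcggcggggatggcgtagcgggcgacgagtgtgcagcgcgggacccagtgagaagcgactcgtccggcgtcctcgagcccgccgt
Uchl1: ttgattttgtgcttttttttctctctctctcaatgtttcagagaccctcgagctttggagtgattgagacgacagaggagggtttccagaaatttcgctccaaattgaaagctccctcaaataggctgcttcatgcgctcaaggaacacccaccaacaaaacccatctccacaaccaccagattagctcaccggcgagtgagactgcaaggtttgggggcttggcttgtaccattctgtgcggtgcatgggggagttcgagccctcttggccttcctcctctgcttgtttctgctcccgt
The *Vip* window held TGACGT 79 bases before the start and TATAAA 157, 147 and 30 bases before it. In *Elavl4* the TGACGT lies on the opposite strand, 58 bases before the start, and is read here as ACGTCA. No match overlapped another. Neither ACAAAG (a SOX core) nor GGGCGG (a GC box), searched in the same way, was found in any of the 9 windows, and the *Uchl1* window held none of the 4 motifs. Of all 32851 windows of this length, 7.51% held TGACGT, 13.6% TATAAA, 18.7% ACAAAG and 35.7% GGGCGG, so a match describes the sequence and does not mark a bound site.

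**Figure D1:**
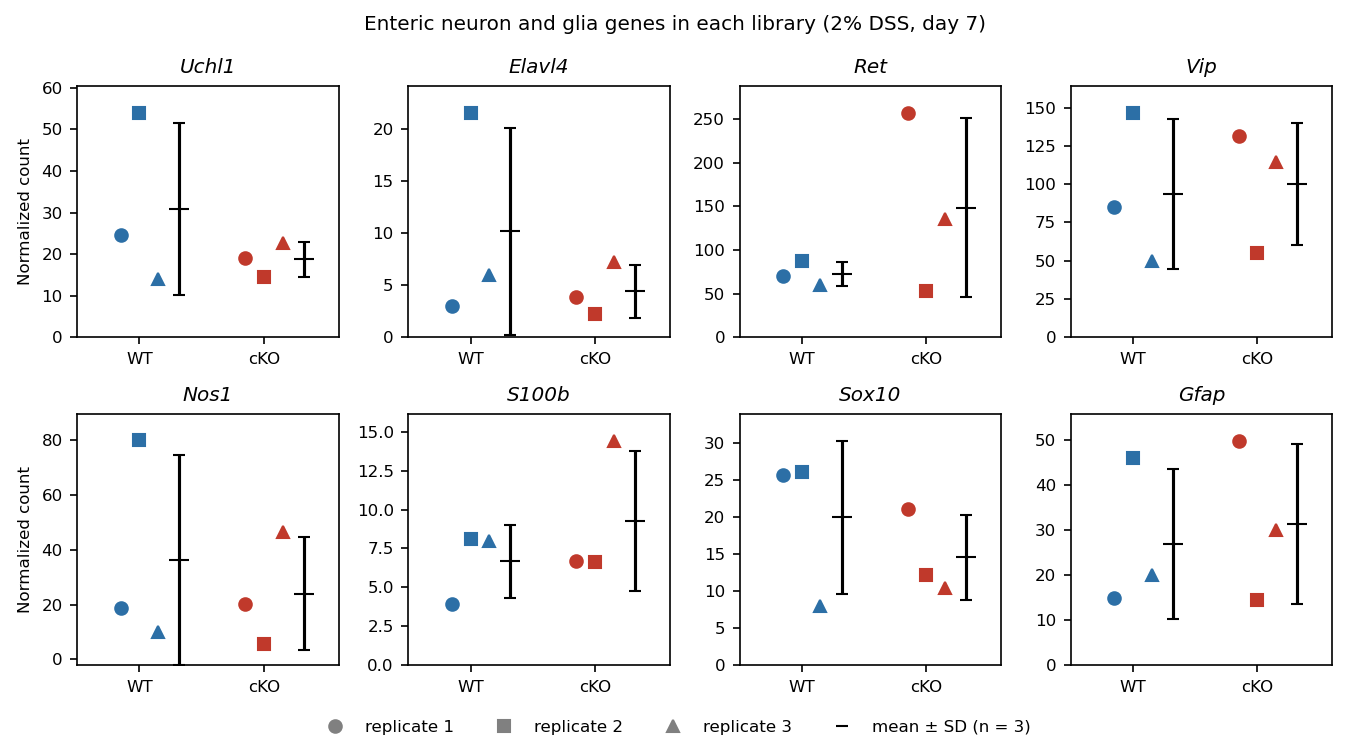
Normalized counts (vertical axes, 1 scale per gene) of the 8 enteric neuron and glia genes in the 3 WT and 3 cKO libraries, with symbols for the replicate number and bars for the mean ± SD (n = 3). The genotypes overlap in every panel, and the WT replicate 2 square is the highest point for *Uchl1*, *Elavl4*, *Vip*, *Nos1* and *Sox10*.

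*Uchl1* (ENSMUSG00000029223, chr5:66676091-66687234 on GRCm38), which encodes the neuronal ubiquitin hydrolase PGP9.5, was the more abundant of the 2 pan-neuronal genes. It measured 19.2, 14.4 and 22.7 normalized counts in cKO replicates 1 to 3 and 24.7, 54.0 and 14.0 in WT. The lowest WT library thus lay below all cKO libraries and WT replicate 2 lay above all of them. The means were 18.7 ± 4.18 in cKO and 30.9 ± 20.7 in WT (SD, n = 3 each), a log2 fold change of −0.51 ± 0.49 (SE, 95% interval −1.63 to 0.62, adjusted p = 0.647), which was −0.013 without WT replicate 2. In cKO the variance of *Uchl1* was 0.90 times that of counting alone, while in WT it was 14.4 times as large. The annotation places 295 of the 1632 exonic bases of *Uchl1* opposite the antisense transcript *Uchl1os*, and since the use of strand in counting is not stated, reads there could belong to either.

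*Elavl4* (ENSMUSG00000028546, chr4:110203722-110351909), which encodes the neuronal RNA-binding protein HuD, gave 3.83, 2.21 and 7.22 normalized counts in cKO and 2.96, 21.6 and 5.99 in WT. Only WT replicate 2 stood apart. If a step is a read, that library held 24 reads (exact 95% Poisson interval 15.4 to 35.7), above the upper limit of 14.4 of the next highest library, cKO replicate 3 with 7 reads; such intervals cover counting error only. Fitted without the filter, the log2 fold change was −0.76 ± 0.67 (SE, 95% interval −2.21 to 0.68, adjusted p = 0.721) and it was −0.064 without WT replicate 2. The related genes *Elavl3* and *Elavl2* were below the filter too, *Elavl3* with 4.15 ± 1.16 in cKO and 5.08 ± 1.18 in WT. *Elavl2* reached 13.4 in cKO replicate 1 and at most 2.06 in any other library.

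Other tested genes of neuron structure also had no adjusted p under 0.05, as held for all 16246 genes tested. Of the 40 genes listed for neuron structure and identity, which include *Uchl1* and *Elavl4*, 27 were tested, 16 with a fold change below 0 and 11 above, and 0 had an unadjusted p under 0.05. Among all tested genes, 7.08% were lower and 6.91% higher in cKO at this p. The genotypes separated for 1 gene in each direction, where 10.9% of all tested genes separated as lower and 10.5% as higher in cKO. The median log2 fold change of the list was −0.034, beside 0.0013 for all genes tested. The smallest unadjusted p belonged to *Mapt*, the microtubule protein tau (−0.43, adjusted p = 0.414), *Map1b*, a further microtubule-associated protein (0.46, adjusted p = 0.420), the adhesion molecule *Ncam1* (131 ± 6.68 in cKO, 106 ± 12.8 in WT, adjusted p = 0.433) and the secretory granule gene *Resp18* (18.4 ± 4.90 and 27.2 ± 2.90, adjusted p = 0.445). *Ncam1* and *Resp18* are the 2 genes whose libraries did not overlap. *Prph*, the peripherin filament of peripheral neurons, had 27.8, 13.3 and 28.9 in cKO and 22.7, 74.7 and 14.98 in WT, with WT replicate 2 far above the rest. *Tubb3*, neuronal tubulin, had its highest value in cKO replicate 1 (58.5) and its lowest in WT replicate 1 (10.9), and its log2 fold change was 0.91 ± 0.59 (SE, adjusted p = 0.503). The synaptic gene *Snap25* (0.02) and *Hand2* (−0.03), a transcription factor of neuron differentiation, had fold changes far smaller than their standard errors of 0.57 and 0.58.

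*Ret* (ENSMUSG00000030110, chr6:118151745-118197718), the GDNF receptor, showed, with *Elavl4*, the largest genotype difference in size among the 8 genes on the log2 scale, and its value depended on individual libraries. Its values were 257, 53.1 and 135 normalized counts in cKO and 70.1, 87.3 and 59.9 in WT. In cKO, 2 libraries lay above all WT libraries and the remaining one, cKO replicate 2, lay below them all. The means were 148 ± 103 and 72.4 ± 13.8 (SD, n = 3 each), a log2 fold change of 0.77 ± 0.54 (SE, 95% interval −0.53 to 2.07, adjusted p = 0.542). Without cKO replicate 2 it was 1.37 (adjusted p = 0.0946), and without cKO replicate 1 it was 0.24 (adjusted p = 0.842). The spread of *Ret* in cKO was 68.7 times the counting variance and in WT 2.74 times. Between cKO replicates 1, 2 and 3 the summed epithelial markers ran from 313991 to 691340 and 434129 normalized counts, and the summed fibroblast markers from 47048 to 24764 and 25503. The library with the most *Ret* thus had the least epithelial and the most fibroblast RNA, and the part of tissue makeup in the *Ret* values was not tested.

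No tested ligand or coreceptor of RET had an adjusted p under 0.05, as held for all 16246 genes tested. *Gdnf* had 15.3 ± 4.08 in cKO and 17.3 ± 2.25 in WT, and *Nrtn*, which encodes neurturin, had 37.2 ± 11.1 and 43.1 ± 21.1. *Gfra1*, the GDNF coreceptor, was highest in WT replicate 2, unlike *Ret*, with 9.59, 8.84 and 20.6 in cKO and 16.8, 44.1 and 4.99 in WT. The log2 fold changes of *Gfra1*, *Gfra2*, *Gfra3* and *Gfra4* were −0.36, −0.38, 0.19 and −0.31, with adjusted p of 0.844, 0.510, 0.805 and 0.859. *Artn*, the RET ligand artemin, measured 62.3, 26.5 and 40.2 in cKO and 19.8, 17.1 and 22.0 in WT, so that every cKO library lay above every WT library. Its log2 fold change was 1.02 ± 0.36 (SE, 95% interval 0.20 to 1.84), and its adjusted p was 0.309. *Gdf15*, a distant TGF-β family member that signals through RET with the brainstem coreceptor GFRAL, had 43.9 ± 21.3 in cKO and 79.7 ± 10.8 in WT (−0.97 ± 0.38, SE, adjusted p = 0.334). *Zeb2*, a transcription factor of neural crest and of myeloid and stromal cells, had 480 ± 71.1 and 359 ± 67.0 (adjusted p = 0.337). These 3 were the tested genes with an unadjusted p under 0.05 out of the 18 of the GDNF and RET list, 1 lower and 2 higher, beside 7.08% lower and 6.91% higher among all tested genes, and the median of the list was 0.074.

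*Vip* (ENSMUSG00000019772, chr10:5639218-5647617), the relaxing and secretory neuropeptide, was the highest of the 8 genes per length. It gave 131, 55.3 and 114 normalized counts in cKO and 84.9, 147 and 49.9 in WT, and the cKO range lay within the WT range. The means were 100.4 ± 39.9 and 93.8 ± 49.0 (SD, n = 3 each), and the log2 fold change was 0.14 ± 0.47 (SE, 95% interval −0.97 to 1.24, adjusted p = 0.909). Leaving out single libraries moved it between −0.24 and 0.52. Its receptors likewise had fold changes smaller than their standard errors. *Vipr1*, the receptor also found on epithelium, had 5215 ± 1033 in cKO and 5058 ± 265 in WT (log2 fold change 0.026 ± 0.14, SE), and *Vipr2*, found on smooth muscle, had 64.8 ± 12.5 and 67.7 ± 16.4 (−0.052 ± 0.26, SE).

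*Nos1* (ENSMUSG00000029361, chr5:117781032-117958840), the nitric oxide synthase of inhibitory motor neurons, varied more than any other of the 8 genes. It gave 20.1, 5.53 and 46.4 normalized counts in cKO and 18.8, 80.1 and 9.99 in WT. The highest library, WT replicate 2, held 14.5 times the lowest, cKO replicate 2, and each genotype had both a low and a high library. Its means were 24.0 ± 20.7 and 36.3 ± 38.2 (SD, n = 3 each), and the log2 fold change of −0.48 ± 0.97 (SE, 95% interval −2.83 to 1.88, adjusted p = 0.848) turned to 0.34 without WT replicate 2 and to 0.28 without cKO replicate 2. An antisense transcript, *Gm26995*, covers 268 of the 11151 exonic bases of *Nos1*. The other synthases are not neuronal. *Nos2*, the inducible enzyme of inflamed epithelium and macrophages, had 7042, 1146 and 3601 in cKO and 1811, 2137 and 1771 in WT, and the endothelial *Nos3* had 127, 48.6 and 39.2 and 48.4, 34.2 and 34.9. As with *Ret*, cKO replicate 1 was the highest library for both. The nitric oxide receptor, soluble guanylyl cyclase, had log2 fold changes of −0.13 for *Gucy1a1* and 0.30 for *Gucy1b1*, with standard errors of 0.20 for each. Its downstream kinase *Prkg1* had 0.31 ± 0.46 (SE), and the smooth muscle potassium channel genes *Kcnma1* and *Kcnmb1* had 0.29 ± 0.23 and 0.64 ± 0.46. In the list of nitric oxide and cyclic GMP genes 11 were tested and 0 had an unadjusted p under 0.05. Among all tested genes, 7.08% were lower and 6.91% higher in cKO at this p. In the list, 3 fold changes were below 0 and 8 above, with a median of 0.29. This median was 0.097 without cKO replicate 1 and 0.14 without that library and WT replicate 2. It was 0.15 without WT replicate 3 and 0.17 without cKO replicate 3.

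**Figure D2:**
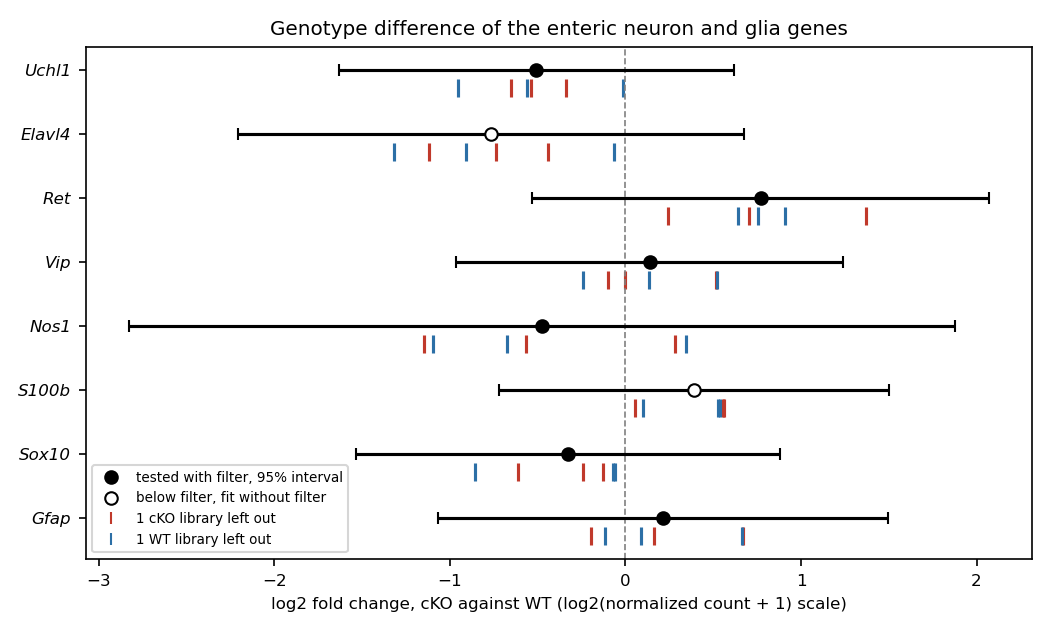
Log2 fold change of cKO against WT (horizontal axis, log2(normalized count + 1) scale) for each of the 8 genes, as the fitted value with its 95% interval (open circles, the 2 genes below the filter, fitted without it) and as ticks beneath for the value with 1 library left out. Every interval covers 0, and the ticks of *Vip*, *Nos1* and *Gfap* fall on both sides of it.

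Among the glial genes, *S100b* (ENSMUSG00000033208, chr10:76253853-76261159), a calcium-binding protein of mature glia, gave 6.71, 6.63 and 14.4 normalized counts in cKO and 3.95, 8.10 and 7.99 in WT. It was highest in cKO replicate 3, where no other of the 8 genes was, and with 48 steps over all libraries its WT spread was 0.87 times that of counting. Fitted without the filter its log2 fold change was 0.39 ± 0.52 (SE, 95% interval −0.72 to 1.4996, adjusted p = 0.806). *Sox10* (ENSMUSG00000033006, chr15:79154908-79165240), the transcription factor that keeps glia and their crest progenitors in their state, gave 21.1, 12.2 and 10.3 in cKO and 25.7, 26.1 and 7.99 in WT. WT replicates 1 and 2 lay above all cKO libraries and WT replicate 3 below them, with means of 14.5 ± 5.76 and 19.9 ± 10.3 and a log2 fold change of −0.33 ± 0.52 (SE, 95% interval −1.54 to 0.88, adjusted p = 0.797). *Gfap* (ENSMUSG00000020932, chr11:102887336-102900912), the intermediate filament of reactive glia, gave 49.8, 14.4 and 29.9 in cKO and 14.8, 45.9 and 19.97 in WT. Each genotype had a library above 45, cKO replicate 1 and WT replicate 2, and the log2 fold change was 0.21 ± 0.55 (SE, 95% interval −1.07 to 1.49, adjusted p = 0.882).

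Further glial genes gave no common direction. Of the 30 glial genes listed, including these 3, 19 were tested, with 10 fold changes below 0, 9 above and a median of −0.081, which was 0.21 without WT replicate 2 and 0.12 without cKO replicate 2. An unadjusted p under 0.05 was found for 3, all of them higher in cKO with no overlap between the genotypes, where 6.91% of all tested genes were higher at this p and 10.5% did not overlap in this direction. *Cnp*, a myelin-associated phosphodiesterase that other cells also make, had 1285 ± 130 in cKO and 990.3 ± 61.1 in WT (0.37 ± 0.10, SE, adjusted p = 0.231), *Matn2*, a matrix protein shared with fibroblasts, had 326 ± 123 and 179 ± 56.1 (0.84 ± 0.31, SE, adjusted p = 0.320), and the third was *Artn*, counted above with the RET ligands. Beside these, the summed fibroblast markers ranged from 24764 to 47048 in cKO and from 12549 to 21305 in WT, without overlap, and their part in the 3 differences was not tested. *Erbb3*, a neuregulin receptor of glia that epithelium also expresses, had 0.15 ± 0.13 (SE, adjusted p = 0.611), and *Ttyh1* had 0.63 ± 0.42 (SE, adjusted p = 0.518).

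Per kilobase of gene model, the level over all 6 libraries was highest for *Vip*, with 28.5 ± 11.8 normalized counts per kilobase (SD, n = 6), which exceeded *Ret* in 6 of 6 libraries. *Ret* (16.3 ± 11.5) and *Uchl1* (15.2 ± 9.14) followed, and *Ret* was the higher of the pair in 3 of 6 libraries, so that their order was not settled. *Uchl1* exceeded *Gfap* (6.91 ± 3.70) in 5 libraries. *Gfap*, *Sox10* (5.64 ± 2.64) and *S100b* (5.37 ± 2.36) lay close together, each above the next in 4 and 3 of 6 libraries. *Nos1* (2.70 ± 2.54) was below *S100b* in 5 libraries and above *Elavl4* (1.36 ± 1.35) in 5.

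The 8 genes varied between libraries of the same genotype, with no genotype difference past the test, and neuronal and glial genes moved partly together. Of the 8 genes, 5 had their highest value in WT replicate 2 (*Uchl1*, *Elavl4*, *Vip*, *Nos1* and *Sox10*), *Ret* and *Gfap* had theirs in cKO replicate 1, and *S100b* had its in cKO replicate 3. The lowest value was in cKO replicate 2 for *Elavl4*, *Ret*, *Nos1* and *Gfap*, in WT replicate 3 for *Uchl1*, *Vip* and *Sox10*, and in WT replicate 1 for *S100b*. Of all genes tested, 18.2% were highest in WT replicate 2 and 24.4% in cKO replicate 1. Of the 27 tested neuron structure genes, 12 (44.4%) were highest in WT replicate 2, and of the 19 glial genes 4 were highest there and 9 in cKO replicate 1. Over the 6 libraries the Pearson correlation of the log2 values within the 28 pairs of the 8 genes had a median of 0.50 and was above 0 in 27 pairs, reaching 0.88 for *Uchl1* with *Nos1* and −0.56 for *S100b* with *Sox10*, both glial. With the mean of each genotype removed the median was 0.67, and without WT replicate 2 it was 0.44, with 25 pairs above 0. Without that library *Uchl1* with *Elavl4* fell from 0.80 to 0.13 and *Elavl4* with *Sox10* from 0.19 to −0.56. In contrast, *Ret* with *Gfap* rose from 0.79 to 0.96. The share of positive pairs among other genes was not computed, so 27 of 28 has no background to be set against. These points share library and depth, and *Elavl4* and *S100b* rest on few reads, so the correlations are descriptions. *Ret* went with *Gfap* (0.79) and *Vip* (0.74) more than with *Uchl1* (0.14).

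WT replicate 2 also held the most smooth muscle RNA, the tissue in which the myenteric plexus lies. The sum of 18 smooth muscle markers was 20120, 38582 and 13775 normalized counts in WT replicates 1 to 3 and 14604, 17114 and 22729 in cKO, so that the highest library exceeded the lowest 2.80 times. The libraries with the most smooth muscle in each genotype, WT replicate 2 and cKO replicate 3, were also those with the most *Uchl1*, *Elavl4* and *Nos1* in their genotype, and WT replicate 3, lowest in smooth muscle, had the least *Uchl1*, *Vip* and *Sox10* of all libraries. The order failed between the other cKO libraries. The smooth muscle sum was higher in cKO replicate 2 than in cKO replicate 1 (17114 against 14604). Yet each of the 8 genes was lower there, such as *Uchl1* (14.4 against 19.2) and *Nos1* (5.53 against 20.1). The correlation of *Uchl1* with this sum was 0.94 over the 6 libraries and 0.73 without WT replicate 2, and that of *Nos1* was 0.81 and 0.60. For the other genes it rested more on that library or was weak, with 0.78 and 0.10 for *Elavl4*, 0.62 and 0.37 for *Vip*, 0.50 and 0.16 for *Sox10*, 0.36 and −0.20 for *Gfap*, 0.21 and 0.25 for *S100b*, and −0.06 and −0.01 for *Ret*. Leukocyte markers went the other way, with 26360 in WT replicate 2 against 38630 to 50724 in the other 5 libraries. Some genes correlated more strongly with another summed list than with smooth muscle. With leukocyte markers *Elavl4* had −0.99 over the 6 libraries and −0.98 without WT replicate 2. With epithelial markers these values were −0.90 and −0.97 for *Gfap* and −0.88 and −0.91 for *Ret*. Smooth muscle was thus not the list that most of the genes followed most closely. How far the amount of muscle wall in each piece set the neuronal counts was not tested. Markers of interstitial cells of Cajal, the pacemaker cells beside the myenteric neurons, summed to 11543 to 12412 in WT and 8188 to 10668 in cKO, with no overlap between the genotypes and no peak in WT replicate 2. Taken singly, 3 of these 7 markers were lower in cKO without overlap, beside 10.9% of all tested genes, and the cause was not tested. None of the markers of these lists that the table holds was at 0 in all libraries.

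**Figure D3:**
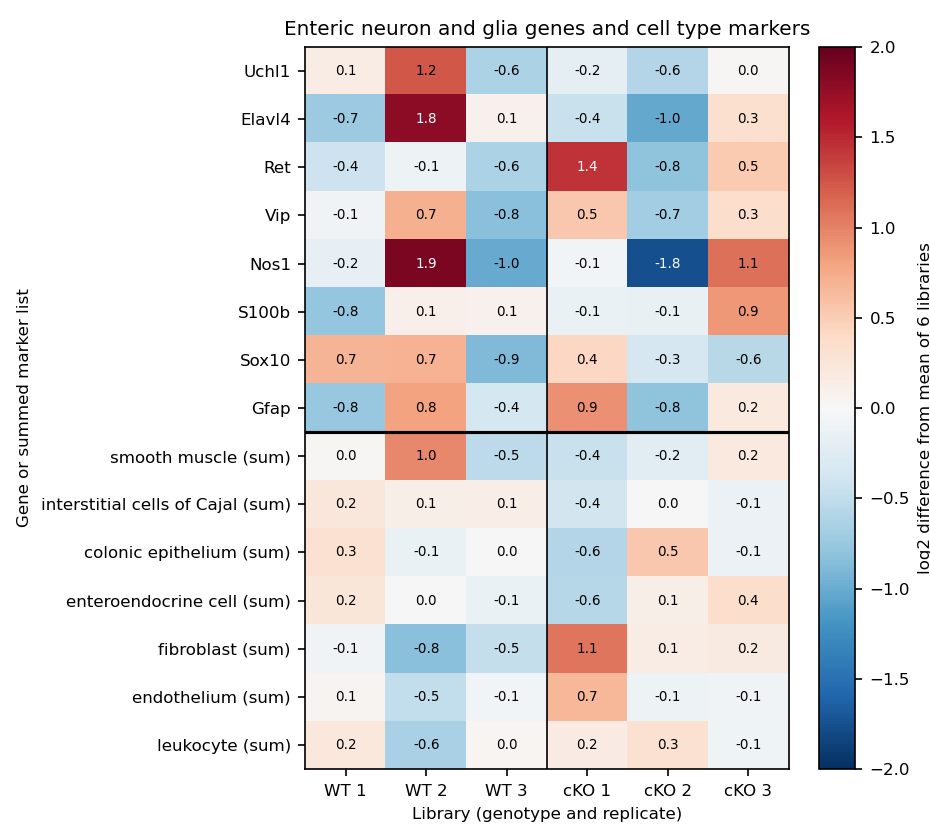
Log2 level of the 8 genes (upper rows) and of summed markers of 7 other cell types (lower rows) in each library, as the difference from the mean of the 6 libraries (color scale, log2 units), with WT to the left and cKO to the right of the vertical line. WT replicate 2 is high for most neuronal genes and for smooth muscle, cKO replicate 1 for *Ret*, *Gfap* and fibroblasts, and cKO replicate 2 is low for most of the 8 genes.

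Genes whose profile was most like the mean standardized profile of the 6 tested genes were *Gpc4*, *Zbtb6*, *Csnk2a2*, *Plpp2* and *Otud6b*, with Pearson r from 0.97 to 0.98 over 6 libraries. They were the first 5 of 11747 protein-coding candidates with a mean of at least 50, of which 61 reached an r of 0.9. Their own range was narrow, *Gpc4*, a heparan sulfate proteoglycan, lying between 811 and 965 normalized counts.

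Among transmitter genes, 1 had an unadjusted p under 0.05, lower in cKO, beside 7.08% of all tested genes lower at this p. Of the 16 genes for transmitter synthesis and vesicle transport, 6 were tested, with a median of −0.28, which was 0.032 without WT replicate 2. In 2 of the tested genes the genotypes did not overlap, both lower in cKO, beside 10.9% of all tested genes in this direction. *Gad2*, which makes GABA, had 24.0, 40.9 and 17.5 in cKO and 55.3, 53.1 and 57.9 in WT, with no overlap (−1.07 ± 0.33, SE, adjusted p = 0.280). *Maob*, a monoamine oxidase that is not specific to neurons, had 54.6, 714 and 300.2 in cKO and 881, 755 and 853 in WT, also with no overlap (−1.86 ± 0.91, SE, adjusted p = 0.417). The acetylcholine esterase *Ache* (0.14) had an adjusted p of 0.695. *Chat*, which makes acetylcholine in excitatory neurons and in tuft cells, was below the filter, with 3.83 and 1.03 in cKO replicates 1 and 3, a listed 0 in cKO replicate 2, and 4.94, 8.10 and 7.99 in WT. Its groups did not overlap, but its values amount to few reads, and fitted without the filter its adjusted p was 0.360.

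Of the 17 neuropeptide genes, 6 were tested, including *Vip*, and 0 had an unadjusted p under 0.05, with a median of 0.10 that was 0.51 without WT replicate 2 and 0.40 without cKO replicate 2. *Sst*, shared with endocrine cells, had 31.9 ± 12.5 in cKO and 49.98 ± 10.04 in WT, and *Cck* had 28.7 ± 11.7 and 16.6 ± 1.52 with every cKO library above every WT library (0.68 ± 0.36, SE, adjusted p = 0.423). *Nmb* (−0.74) and *Tac1* (0.56), the gene of substance P, had adjusted p of 0.505 and 0.729. Among 25 receptor genes for enteric peptides, 14 were tested and 3 had an unadjusted p under 0.05, all lower in cKO without overlap, beside 7.08% of all tested genes lower at this p and 10.9% not overlapping in this direction. *Oprd1*, the δ-opioid receptor, had 2.88, 2.21 and 6.19 in cKO and 10.9, 25.2 and 27.0 in WT (−2.20 ± 0.53, SE, 95% interval −3.42 to −0.99, adjusted p = 0.211). *Npy1r*, a receptor for neuropeptide Y and peptide YY, had 78.7 ± 22.7 and 148 ± 43.1 (adjusted p = 0.304), and *Sstr1*, a somatostatin receptor, had 46.4 ± 17.2 and 95.01 ± 43.5 (adjusted p = 0.322). *Tacr1*, the substance P receptor, had 0.72 ± 0.50 (SE, adjusted p = 0.531), and the median of the receptor list was −0.013. The neurotrophin list, which also holds the cytokine gene *Lif* and its receptor gene *Lifr*, had 8 of 13 genes tested. Of these, 0 had an unadjusted p under 0.05, and the median of the list was −0.010. Its smallest p belonged to *Lifr*, the LIF receptor subunit (312 ± 91.4 in cKO and 201 ± 57.4 in WT, adjusted p = 0.365), *Ntrk3*, the neurotrophin-3 receptor (−0.85), *Lif* itself (0.33) and the low-affinity receptor *Ngfr* (−0.22). For *Lifr*, 1 of the 8 tested, every cKO library lay above every WT library, beside 10.5% of all tested genes in this direction.

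Counting each gene of the 8 lists once, 103 of 170 were tested. Of these, 5 were lower and 4 higher in cKO at an unadjusted p under 0.05 (4.85% and 3.88%), beside 7.08% and 6.91% of all tested genes. After adjustment 0 of the 103 passed. All tested genes were not matched to the lists in level, so no deficit is read from these shares. The genotypes separated for 7 genes in each direction, 13.6% in all, beside 21.4% of all tested genes, and the median log2 fold change was −0.002.

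**Figure D4:**
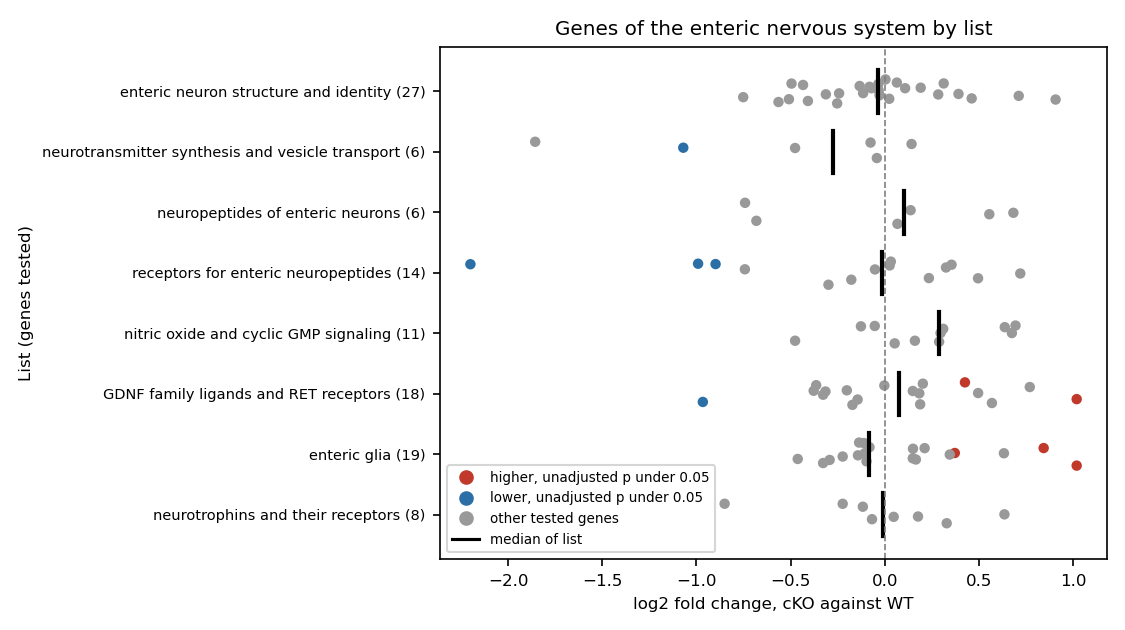
Log2 fold change of cKO against WT (horizontal axis) for the tested genes of 8 lists of enteric nervous system genes (vertical axis, number tested in brackets), with black bars for the median of each list and colored points for genes with an unadjusted p under 0.05; points are spread vertically for legibility. The medians lie between −0.28 and 0.29, and 9 different genes are colored, *Artn* in 2 lists.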

How the data were processed

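Colonic RNA (TRIzol, NEBNext Ultra library kit) in 3 cKO and 3 WT libraries was analysed from 1 table. Its deposited normalized counts are a signal that the authors made by dividing the reads of each gene by a size factor of the library. The submitters' processing notes name HISAT2 2.0.5, featureCounts 1.5.0-p3 and a human build, hg18, yet the table's coordinates are those of GRCm38: 27164 of 27202 identifiers are in GENCODE mouse release 21, where all 8 genes have identical coordinates. The use of strand is not stated. The authors' genotype means and columns of log2 fold change, p-value and adjusted p-value were not used.

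On the log2(value + 1) scale, the 16246 genes averaging 10 or more in the 6 libraries were tested. For this, limma 3.58.1 under R 4.3.3 was run with lmFit and eBayes (trend and robust), with Benjamini-Hochberg adjustment over all genes tested at a threshold of 0.05. *Elavl4*, *S100b*, *Chat* and other genes under the filter were fitted without it. Single genes were also compared by exact two-sided permutation tests in scipy 1.17.1. Counting variance and intervals took 1 step as 1 read (all values whole within 0.01 of a step). Count models were not run. The labels do not say whether a number shared by a cKO and a WT mouse ties them, and the deviations of same-numbered libraries did not correlate. Separate mice are taken from the titles alone, so p-values measure the spread between these libraries.

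The 8 genes and the gene lists were chosen with earlier results of these data known. Named were the 8 genes, *Nedd4l*, the 4 tested genes of smallest unadjusted p in each list, ligands, receptors and partner enzymes of the 8 genes, and the 5 genes of most similar profile; some genes under this rule are not reported here. Alternatives were 2 other pseudocounts, other filters and scalings, array weights, a replicate block and each library left out.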

Additional observations from a re-analysis of the deposited data

How the results depend on the processing

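The adjusted p of each of the 8 genes stayed above 0.05 under every alternative run, the lowest being 0.0946 for *Ret* without cKO replicate 2. With 1 library left out, the log2 fold change ranged from −0.95 to −0.013 for *Uchl1*, −1.32 to −0.064 for *Elavl4*, 0.24 to 1.37 for *Ret*, −0.24 to 0.52 for *Vip*, −1.15 to 0.34 for *Nos1*, 0.053 to 0.56 for *S100b*, −0.85 to −0.058 for *Sox10* and −0.20 to 0.67 for *Gfap*. *Vip* thus reversed without cKO replicate 1 (−0.10), cKO replicate 3 (−0.0026) or WT replicate 3 (−0.24), *Gfap* without cKO replicate 1 (−0.20) or WT replicate 1 (−0.12), and *Nos1* without cKO replicate 2 (0.28) or WT replicate 2 (0.34), with array weights (0.72), and without both cKO replicate 1 and WT replicate 2 (0.26), a setting chosen after seeing the data; the cause was not tested. *Nedd4l* passed the threshold with array weights (−1.09, adjusted p = 0.0212) and without cKO replicate 2 (−1.28, adjusted p = 0.0130), and was −0.78 without both libraries.

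Genes past the adjusted threshold numbered 23 lower and 7 higher with no filter, 369 and 262 with array weights, and 0 to 52 lower and 0 to 70 higher with 1 library left out, the highest counts being those without cKO replicate 2; at an unadjusted p under 0.05 they numbered 2122 and 2084 with array weights, 735 to 1425 lower and 797 to 1453 higher with 1 library left out, and 741 higher without both libraries. List medians ranged, with 1 library left out, from −0.59 to 0.032 for transmitter genes (0.042 without both libraries), from −0.19 to 0.51 for neuropeptides and from −0.080 to 0.21 for glia, each highest without WT replicate 2, and from −0.18 to 0.069 for neuron structure, −0.19 to 0.19 for peptide receptors, 0.097 to 0.397 for nitric oxide genes, 0.027 to 0.127 for GDNF and RET genes and −0.12 to 0.15 for neurotrophins.

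Same-numbered libraries had deviations correlated at −0.029, −0.090 and −0.056, which cannot show whether the numbers tie mice. A replicate block left the fold changes as they were (*Ret* 0.77, adjusted p = 0.530) with 0 calls. Requiring a mean of 50 left *Ret* and *Vip* alone among the 8 genes. The planned count models and packaged scaling factors were not run; a trimmed mean of M values computed here took the place of the latter, after seeing the data. At 2 to 24 reads per library for *Elavl4* and 4 to 14 for *S100b*, counting error limits both.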

Other observations

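Outside the plexus, markers of other cell types with nervous or stromal ties also varied by library. The sum of 15 enteroendocrine markers, cells that share *Cck*, *Sst* and other peptides with enteric neurons, was 5348, 4498 and 4141 normalized counts in WT replicates 1 to 3 and 3033, 4901 and 5775 in cKO. Endothelial markers summed to 1589 to 2332 in WT and 2072 to 3531 in cKO, and mesothelial and adipocyte markers to 181 to 323 and 268 to 451, each with overlapping genotypes and with the highest value in cKO replicate 1. That library was also the highest for *Ret*, *Gfap*, *Artn* and *Matn2*.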
